A study of Mus musculus with 10 samples.

Results

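The enterocyte progenitors of small-intestinal crypts (Ent-Pro) were compared with the Lgr5+ intestinal stem cells (ISC) on Affymetrix mouse 430A 2.0 arrays. The comparison took the 2 Ent-Pro and the 2 ISC arrays of a series of 10 arrays in 5 groups of 2. All mice were C57BL/6. Ent-Pro RNA came from crypts of Atoh1-/- mice, which carry no secretory cells according to the labels. ISC RNA came from cells of Lgr5-eGFP-Cre mice sorted by flow cytometry for GFP. The other groups were villus enterocytes of Atoh1-/- mice (ENT) and 2 kinds of secretory progenitor crypt (Sec-Pro), from mice with deleted Rbpj and from mice given the Notch inhibitor dibenzazepine (DBZ). Crypts were released in 5 mM EDTA for 50 min and villi in 5 mM EDTA for 25 min. A flow sort is recorded for the stem cells only, so sort, Atoh1 genotype and cell type cannot be told apart in Ent-Pro minus ISC. The labels describe no step that takes stem cells out of the Atoh1-/- crypts. Ages and the number of animals behind each array are not named, so the p-values measure the spread between these arrays, which may be technical.

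Lgr5+ cells lie at the crypt base and divide to renew the epithelium. Their daughters divide several more times in the crypt, and those in which Notch signalling keeps Atoh1 silent become enterocytes, the absorptive cells that cover the villus. Enterocytes take up sugars, peptides, lipids and vitamins through the brush border, and they break down or conjugate many food-borne compounds. The comparison asks what an absorptive progenitor has gained or lost relative to the stem cell, here mainly beyond the familiar lineage markers.

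Values are log2 levels as deposited, 1 probe set per gene, and every difference is Ent-Pro minus ISC on the log2 scale unless another pair is named. The error given with a difference is the SE of the limma fit, and a gene was called higher or lower at a Benjamini-Hochberg adjusted p under 0.05. A gene was near background where both arrays of a group read at most 1 log2 unit above the highest bacterial control probe set that should find no target, and a fold against such a group is given as a lower bound. Array medians ran from 6.83 to 6.98. The pair of ISC arrays correlated at r = 0.994 and the pair of Ent-Pro arrays at r = 0.995 across all genes, and ISC with Ent-Pro arrays at 0.958 to 0.965. The control probe sets for the 3′ and 5′ ends of 2 transcripts differed more in the sorted cells: the 3′ minus 5′ difference of Actb was 1.92 and 2.02 in the ISC arrays against 0.82 and 0.85 in the Ent-Pro arrays, and that of Gapdh was 1.61 and 1.81 against 0.05 and 0.03. Its part in the gene differences below was not tested. The Y-linked gene Eif2s3y read 8.96 in ISC replicate 1 and 3.52 to 3.71 in all 9 other arrays, so Y-linked transcript stood out in that array alone.

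The labels were checked against markers first. Atoh1, the secretory fate factor deleted in the Ent-Pro mice, read 7.68 and 7.80 in ISC and 5.75 and 5.78 in Ent-Pro, against 10.40 to 11.85 in the 4 Sec-Pro arrays (difference −1.98 ± 0.15, adjusted p = 0.0001). Lgr5 read 11.36 and 11.06 in ISC and 7.91 and 7.55 in Ent-Pro (difference −3.48 ± 0.61, adjusted p = 0.0036). Of 24 measured absorptive enterocyte genes 22 were higher in Ent-Pro than in ISC and none was lower, with a median difference of 2.75. Against Sec-Pro none of these 24 was higher and 1 was lower, with a median of −0.27. The absorptive list thus did not set Ent-Pro apart from the Sec-Pro crypts. Of 23 stem cell genes 11 were lower than in ISC and none was higher, with a median of −0.76. Ascl2 and Smoc2, 2 further stem cell genes, were not called (−0.76 and −0.24, adjusted p = 0.23 and 0.77). The stem cell count fell to 7 without any 1 of the 4 arrays compared. Of 23 Paneth, goblet and hormone cell genes 19 were lower in Ent-Pro, and their mean level was 9.73 and 10.02 in the ISC arrays against 6.87 and 6.89 in Ent-Pro. The goblet gene Tff3, for one, read 13.35 in both ISC arrays and 7.22 and 6.77 in Ent-Pro. The sorted stem cell arrays thus held secretory transcripts, and a gene that is lower in Ent-Pro could come from the Lgr5+ cells or from secretory cells in the same sort; the 2 cannot be told apart here. In bulk RNA, fewer cells of a type and less RNA per cell cannot be told apart either.

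Across 12393 genes, 3165 were called (25.5% of those tested): 1498 were higher in Ent-Pro (12.1%) and 1667 lower (13.5%). Of these, 555 were higher (4.48%) and 546 lower (4.41%) by at least 2-fold. The counts depended on each of the 4 arrays: without ISC replicate 1 they were 1139 higher and 1097 lower, 800 and 1017 without ISC replicate 2, 879 and 937 without the first Ent-Pro array, and 843 and 861 without the second. Higher genes made up 47.3% of the calls, and 59.9% (1905 higher, 1277 lower) when each array was centred on its median, which shifted the median difference of all genes by 0.12. For orientation, several lists are also given in 2 other comparisons. In Ent-Pro minus the mean of both Sec-Pro groups 14.7% of genes were higher and 9.27% lower, and in ENT minus Ent-Pro 18.5% were higher and 20.2% lower. All 3 comparisons share the Ent-Pro arrays, so agreement between them is not independent.

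**Figure D1:**
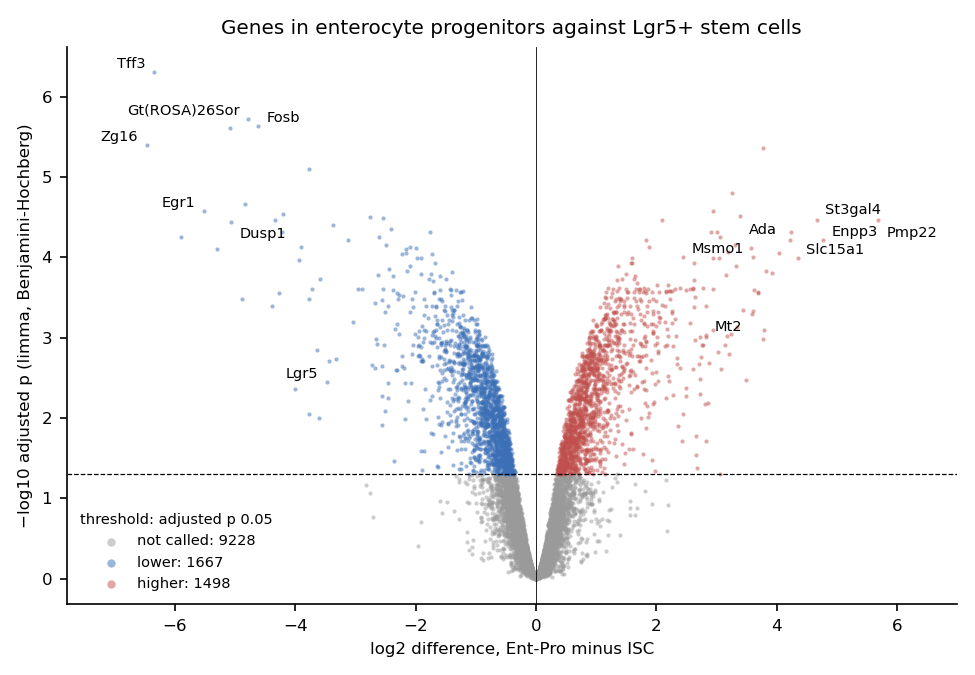
Log2 difference of Ent-Pro minus ISC (x axis) against −log10 of the limma adjusted p (y axis) for 12393 genes, 1 point per gene, with the dashed line at an adjusted p of 0.05. Higher genes (1498, red) and lower genes (1667, blue) are similar in number, and secretory genes (Zg16, Tff3), immediate-early genes (Egr1, Dusp1, Fosb) and Gt(ROSA)26Sor are among those farthest to the left.

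The gene with the largest increase was Pmp22, a tetraspan membrane protein, which read 4.80 and 4.37 in ISC, near the background of the array, and 9.99 and 10.56 in Ent-Pro. It was at least 38.9-fold higher (difference 5.69 ± 0.33, adjusted p = 3.4e-05). Emp1, a relative of Pmp22, was higher by 3.93 ± 0.32, and the sialyltransferase St3gal4, the peptide carrier Slc15a1, the keratin Krt20 and the glucose carrier Slc2a2 by 3.69 to 4.67. Sec24d, part of the coat of vesicles that leave the endoplasmic reticulum, read 6.67 and 6.65 in ISC and 10.40 and 10.48 in Ent-Pro. In each of these genes both Ent-Pro arrays lay above both ISC arrays. Arrays of this kind did not overlap for 63.7% of all genes, so that alone marks little. Among the 15 largest decreases were secretory genes (Zg16, Tff3, Spink4, Fcgbp, Clca1, Neurog3), the chemokine gene Ccl6, and genes induced within minutes of a stimulus (Egr1, Dusp1, Fosb, Atf3), with differences from −4.22 to −6.47.

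**Figure D2:**
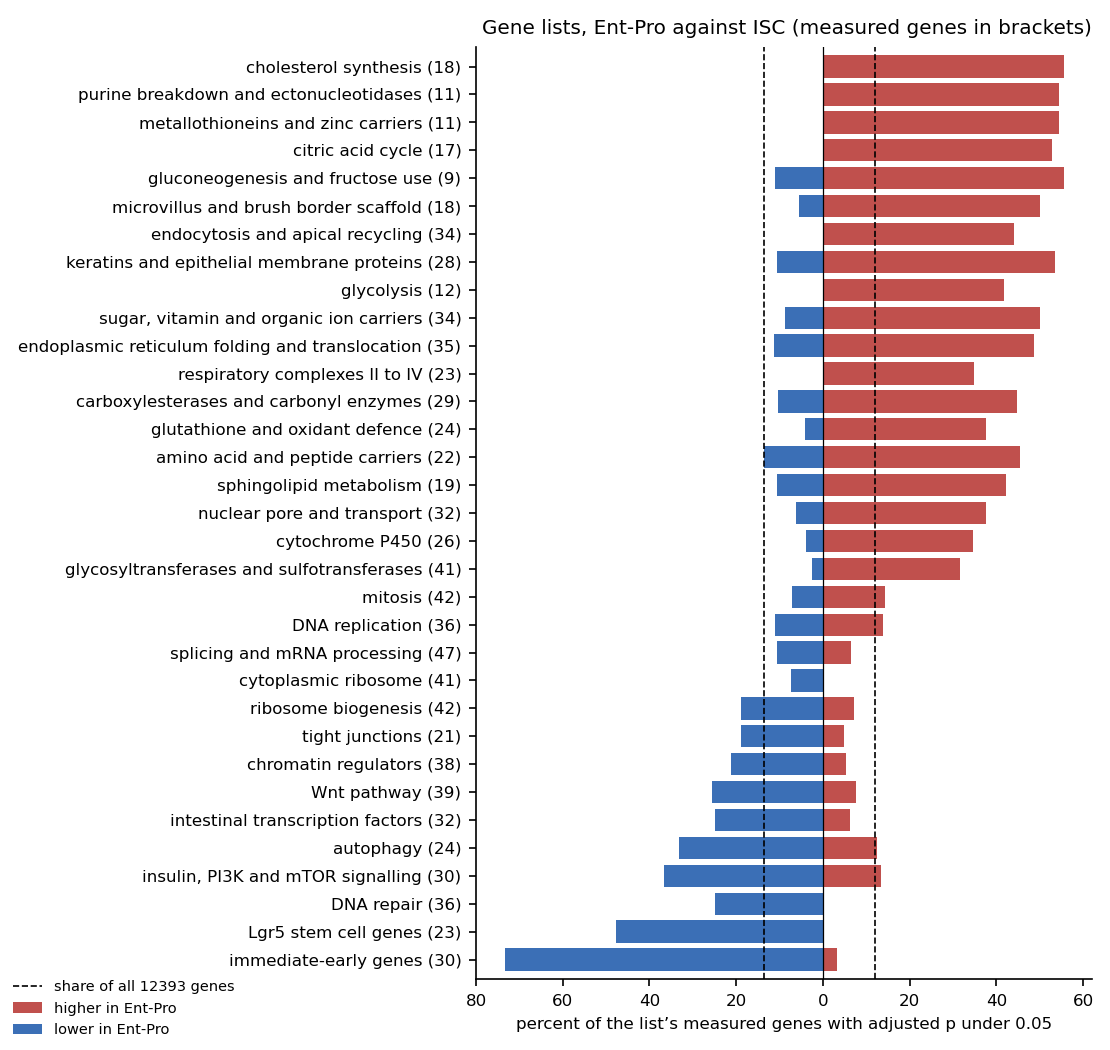
Share of the measured genes of 33 gene lists that were higher (red, to the right) or lower (blue, to the left) in Ent-Pro than in ISC, in percent, with dashed lines at the shares over all genes (12.1% higher, 13.5% lower). The lists shown are a selection of those measured. Many metabolic, carrier and membrane lists among them lie well to the right of the line. Replication, mitosis and splicing lists lie near both lines, and the immediate-early list lies farthest to the left at 73.3%. Not every measured list of the first kinds had a high share of higher genes. The urea cycle, arginine and polyamine list had 17.6% higher and 29.4% lower. The ion pump, channel and carbonic anhydrase list had 12.5% higher. The lists of branched-chain and other amino acid breakdown and of tight junctions held more lower than higher genes.

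Several enzymes that break down purines were higher in Ent-Pro. Of 11 measured genes for purine breakdown and ectonucleotidases 6 were higher in Ent-Pro (54.5%) and none was lower, with a median difference of 0.46. Ada, adenosine deaminase, which turns adenosine into inosine, read 8.28 and 8.27 in ISC and 12.41 and 12.59 in Ent-Pro (4.23 ± 0.28, adjusted p = 6.1e-05). Enpp3, an ectoenzyme that cleaves extracellular nucleotides, read 7.14 in both ISC arrays and 12.06 and 11.77 in Ent-Pro (4.77 ± 0.32, adjusted p = 6.1e-05). The ISC and Ent-Pro arrays were far apart for both genes, although the 5 probe sets of Enpp3 ranged from 0.05 to 4.90. Gda, guanine deaminase, read 5.06 and 5.24 against 8.82 and 8.86 (3.69 ± 0.35, adjusted p = 0.00027). Xdh, xanthine dehydrogenase, which makes uric acid, read 8.25 and 7.80 against 10.28 and 9.82 (2.03 ± 0.29, adjusted p = 0.0016). Ada, Gda and Xdh act on the way from adenosine and guanine to uric acid. Enpp3, Ada, Gda and Xdh were higher again in ENT than in Ent-Pro, by 1.71 to 2.62. None of these 4 was called against Sec-Pro (differences −0.95 to 0.21). Genes that build purines and pyrimidines behaved differently: of 20 measured, 3 were higher than in ISC and none lower, with 5 to 7 higher when probe sets were chosen another way, when only the 4 arrays were fitted or without either Rbpj array, while 12 were higher than in Sec-Pro and 17 were lower in ENT than in Ent-Pro.

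Sterol synthesis had a similar share of higher genes. Of 18 measured genes 10 were higher in Ent-Pro (55.6%) and none was lower, with a median of 0.66. Msmo1, a sterol methyl oxidase, read 8.26 and 7.88 in ISC and 10.36 and 10.66 in Ent-Pro (2.44 ± 0.18, adjusted p = 9.9e-05). Fdps, farnesyl diphosphate synthase, read 8.10 and 8.12 against 10.04 and 9.85 (1.83 ± 0.12, adjusted p = 6.1e-05). Sc5d, a sterol desaturase, read 8.68 and 8.55 against 10.30 and 10.11 (1.59 ± 0.12, adjusted p = 0.00012). The ISC arrays were below all 8 other arrays for these 3 genes, and for Cyp51, lanosterol demethylase (1.56 ± 0.16, adjusted p = 0.00041), as the plot of metabolic genes shows. Not every gene of the pathway was called. Srebf2, the factor that switches the pathway on, differed by −0.35 (adjusted p = 0.26). Hmgcs1, which makes HMG-CoA, differed by −0.07 (adjusted p = 0.78), with 4 probe sets between −0.07 and 1.82; both genes were chosen after their values were seen. Against Sec-Pro no sterol gene was higher and 1 was lower (Sc5d), and in ENT 1 was higher and 6 were lower than in Ent-Pro.

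Promoters of the sterol genes were searched for the NF-Y box CCAATCA on both strands, since NF-Y sites commonly flank sterol-responsive elements. It was present in the 250 bases before the start of 8 of 14 sterol genes with a RefSeq promoter (57.1%), against 9.18% of all 9882 promoters. Among DNA replication genes, a list with few differences from ISC, it was present in 9 of 30 (30.0%). The sterol-responsive core TCACCCCAC itself, searched on both strands, was found in 1 of the 14 sterol promoters (7.14%) and in 0.476% of all. A match is a description and not a site. The promoters of the 2 strongest genes with a match are shown 5′ to 3′ on the strand of the gene, from RefSeq (GRCm38.p6), with the NF-Y box or its reverse complement in capitals, at position −96 from the start of Msmo1 (chr8:64733579-64733828, minus strand) and −26 from the start of Sc5d (chr9:42264301-42264550, minus strand).
Msmo1: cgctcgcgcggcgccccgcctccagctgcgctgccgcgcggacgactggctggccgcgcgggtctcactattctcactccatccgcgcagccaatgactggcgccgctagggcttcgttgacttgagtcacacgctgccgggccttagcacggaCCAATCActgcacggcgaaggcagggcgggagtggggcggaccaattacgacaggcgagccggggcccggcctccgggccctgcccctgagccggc
Sc5d: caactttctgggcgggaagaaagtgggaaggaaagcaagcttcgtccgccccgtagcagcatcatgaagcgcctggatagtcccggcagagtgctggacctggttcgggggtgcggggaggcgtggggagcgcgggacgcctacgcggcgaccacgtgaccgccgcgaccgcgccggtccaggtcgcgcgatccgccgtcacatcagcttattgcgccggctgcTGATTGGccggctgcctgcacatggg

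**Figure D3:**
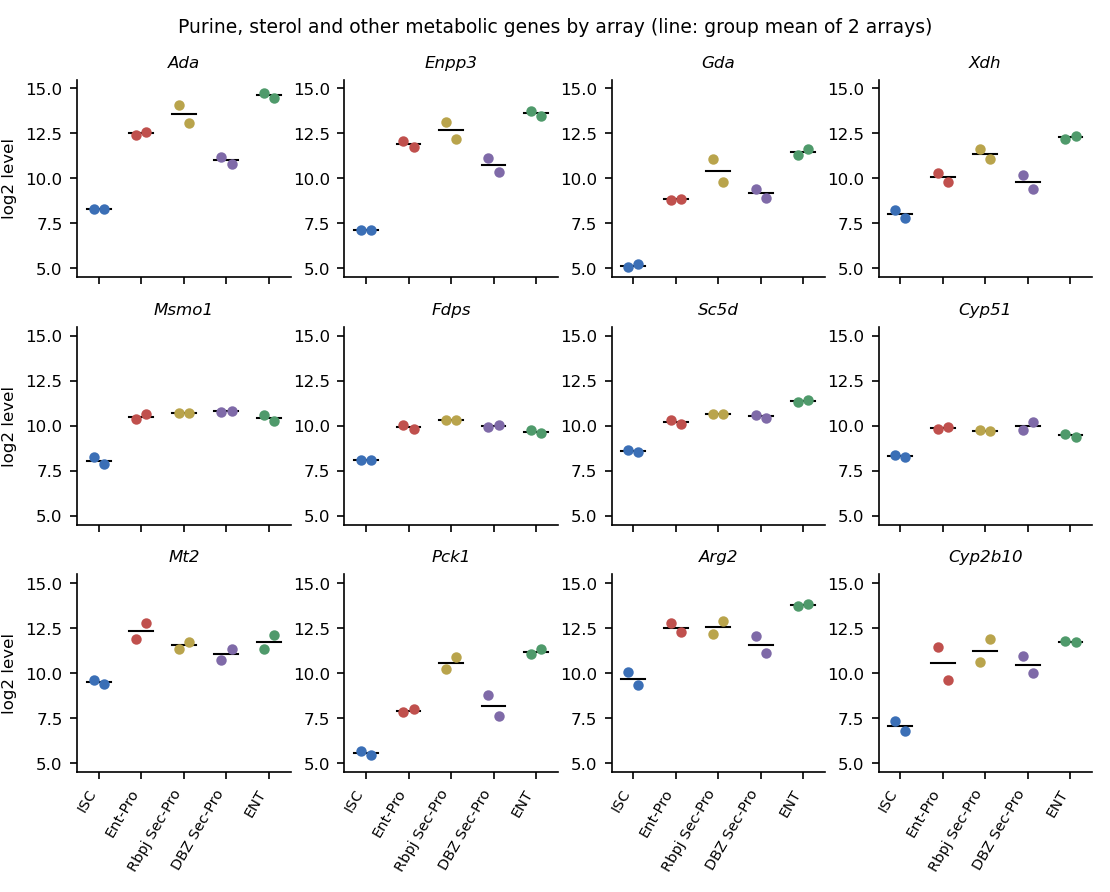
Log2 level (y axis) of 12 metabolic genes in each of the 10 arrays, grouped on the x axis by ISC, Ent-Pro, Rbpj Sec-Pro, DBZ Sec-Pro and ENT. Points are arrays and lines are means of 2 arrays. In all 12 genes both ISC arrays lie below both Ent-Pro arrays; Ada, Gda and Pck1 are higher again in ENT, and Msmo1, Fdps and Cyp51 are not.

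Other lipid enzymes moved with the sterol genes. Mogat2, which rebuilds triglyceride from absorbed monoacylglycerol, read 8.0 in both ISC arrays and 10.99 and 10.56 in Ent-Pro (2.77 ± 0.25, adjusted p = 0.00024). Dgat2, which adds the last acyl chain, was higher by 1.94 ± 0.23 and the acyl-CoA synthetase Acsl5 by 1.93 ± 0.18. Of 21 genes for fatty acid and triglyceride synthesis 6 were higher (28.6%) and 3 lower (14.3%); without ISC replicate 2 or either Ent-Pro array, 1 was lower, and without either Rbpj array 5 were. Of 19 sphingolipid genes 8 were higher (42.1%) and 2 lower (10.5%), with 0 to 1 lower without ISC replicate 1, ISC replicate 2 or Ent-Pro replicate 2. Asah2, a ceramidase of the brush border that digests dietary sphingolipid, read 7.98 and 7.63 in ISC and 10.90 and 10.59 in Ent-Pro (2.94 ± 0.27, adjusted p = 0.00025). Sgpl1, which degrades sphingosine phosphate, was higher by 2.21 ± 0.21. Against Sec-Pro 2 of the 19 sphingolipid genes were higher and 6 lower. Of the 21 fatty acid and triglyceride genes 6 were higher than in Sec-Pro and 1 lower.

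Several enzymes that handle foreign compounds were also higher in Ent-Pro than in ISC. Of 26 cytochrome P450 genes 9 were higher (34.6%) and 1 lower (3.85%), with a median of 0.76. In ENT 20 were higher than in Ent-Pro and none lower. Against Sec-Pro 2 of the 26 were higher in Ent-Pro and 4 lower, with a median of −0.23. Cyp3a13 read 7.67 and 7.44 in ISC and 11.81 and 11.40 in Ent-Pro (4.05 ± 0.30, adjusted p = 8.9e-05). Cyp4f14, a fatty acid hydroxylase, was higher by 3.63 ± 0.34 (adjusted p = 0.00026). The Ent-Pro replicates parted in the mean level of this list, which was 8.41 and 7.75, against 7.05 and 6.96 in ISC. Cyp2b10 read 7.33 and 6.80 in ISC but 11.47 and 9.65 in Ent-Pro (3.50 ± 0.60, adjusted p = 0.0033). Cyp3a11, chosen after its values were seen, read 12.51 in Ent-Pro replicate 1 and 9.30 in replicate 2, against 8.85 and 9.10 in ISC, and was not called (1.93 ± 0.80, adjusted p = 0.12). Cyp2b10 and Cyp3a11 are textbook targets of the xenobiotic receptors Pxr and Car, and in both Ent-Pro replicate 1 was the higher array. The part of these receptors was not tested.

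Of 29 carboxylesterases and carbonyl enzymes 13 were higher (44.8%) and 3 lower (10.3%). The higher count was 8 without ISC replicate 1 or either Ent-Pro array and 7 without ISC replicate 2, and the lower count 0 to 1 without any of these and 6 without either Rbpj array. Among the conjugating enzymes, Sult1b1, a sulfotransferase, was higher by 2.32 ± 0.26 (adjusted p = 0.00058) and the glutathione transferase Mgst3 by 1.80 ± 0.16 (adjusted p = 0.00024). Ephx1, microsomal epoxide hydrolase, ran the other way: it read 8.80 and 8.72 in ISC and 7.11 and 6.96 in Ent-Pro (−1.72 ± 0.33, adjusted p = 0.0053). Of 24 genes for glutathione and oxidant defence 9 were higher (37.5%) and 1 lower (4.17%). The oxidant-response factor Nfe2l2 read 10.84 and 10.90 in ISC and 12.06 and 12.37 in Ent-Pro (1.35 ± 0.19, adjusted p = 0.0014). Sulfiredoxin Srxn1 (1.83 ± 0.24), glutathione reductase Gsr (1.34 ± 0.20) and the quinone reductase Nqo1 (1.00 ± 0.18), all known targets of that factor, were higher as well. The part of Nfe2l2 in these differences was not tested. Against Sec-Pro 3 of the carboxylesterases and carbonyl enzymes were higher and 3 lower. Of 23 conjugating enzymes 1 was higher than in Sec-Pro and 5 were lower. For oxidant defence 5 of the 24 were higher than in Sec-Pro and none was lower.

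Zinc, iron and arginine genes gave further single differences. Of 11 metallothionein and zinc carrier genes 6 were higher (54.5%) and none lower, with a median of 0.78. Mt2, which binds zinc, read 9.63 and 9.40 in ISC and 11.90 and 12.79 in Ent-Pro (2.83 ± 0.36, adjusted p = 0.00093). It was also higher than in Sec-Pro (1.04, adjusted p = 0.042), and ENT minus Ent-Pro was −0.59 (adjusted p = 0.24). The zinc carrier Slc30a5 was higher by 1.11 ± 0.13. Of 21 haem and iron genes 6 were higher (28.6%) and 1 lower (4.76%), and 3 were higher without ISC replicate 2 or without Ent-Pro replicate 1. Heph, the ferroxidase that helps iron leave the cell, read 9.13 and 8.74 in ISC and 10.96 and 10.98 in Ent-Pro (2.03 ± 0.22, adjusted p = 0.00047). The mitochondrial arginase Arg2 read 10.07 and 9.34 against 12.78 and 12.29 (2.83 ± 0.36, adjusted p = 0.00099), and Azin1, which frees ornithine decarboxylase from its inhibitor, was higher by 1.89 ± 0.13. They were 2 of 3 higher genes (17.6%) among 17 for the urea cycle, arginine and polyamines, of which 5 were lower (29.4%). That lower count was 3 without ISC replicate 1 or with the dimmest probe sets, 2 without ISC replicate 2 and 1 without the second Ent-Pro array. All 4 arrays kept their groups apart for Mt2, Heph and Arg2.

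Some genes of central carbon metabolism were higher. Pck1, cytosolic PEP carboxykinase of gluconeogenesis, read 5.67 and 5.45 in ISC and 7.83 and 8.0 in Ent-Pro (2.35 ± 0.35, adjusted p = 0.0018), and its second probe set differed by −0.02. G6pc, glucose-6-phosphatase, read 4.80 and 4.61 in ISC, near background, and 7.93 and 6.47 in Ent-Pro, at least 4.61-fold higher (2.49 ± 0.45, adjusted p = 0.0042). The fructose carrier Slc2a5 was higher by 1.72 ± 0.25. Of the 9 genes for gluconeogenesis and fructose use 5 were higher (55.6%) and 1 lower (11.1%), with 3 higher without ISC replicate 2 or without Ent-Pro replicate 1. Of 12 glycolysis genes 5 were higher (41.7%) and none lower, among them the phosphofructokinase Pfkp (2.20 ± 0.19) and lactate dehydrogenase Ldha (1.16 ± 0.12). With the dimmest probe set of each gene 3 were.

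The mitochondrial lists of the citric acid cycle, of complexes II to IV and of the ribosome and import held more higher than lower genes. Their higher counts fell without single arrays, and so did the count of higher genes over all genes. Of 17 citric acid cycle genes 9 were higher (52.9%) and none lower, with a median of 0.38. That count was 5 without ISC replicate 1, 3 without ISC replicate 2 or Ent-Pro replicate 2, 2 without the first Ent-Pro array, and 5 after cyclic loess normalization or with the dimmest probe sets. Dld, the dehydrogenase subunit that the pyruvate and oxoglutarate complexes share, read 9.34 and 8.99 in ISC and 10.76 and 10.87 in Ent-Pro (1.65 ± 0.22, adjusted p = 0.0011). Of 23 genes of respiratory complexes II to IV 8 were higher (34.8%) and none lower, and 4 were without ISC replicate 2 or Ent-Pro replicate 1 and 3 without the second Ent-Pro array; cyclic loess gave 4. Complex I was divided: 7 of 33 genes were higher (21.2%) and 4 lower (12.1%), the median was 0.01, and cyclic loess and quantile normalization turned it to −0.20 and −0.10. It was −0.05 without ISC replicate 2 and −0.06 without Ent-Pro replicate 1. The lower count there was 2 with centred arrays, 7 with cyclic loess, 1 without the first Ent-Pro array, and 0 without ISC replicate 2 or Ent-Pro replicate 2. Of 34 genes for the mitochondrial ribosome and import 11 were higher than in ISC (32.4%), but 26 were higher than in Sec-Pro and 22 were lower in ENT than in Ent-Pro. The count of 11 was 5 and 3 without the first and the second ISC array, and 2 and 5 without the first and the second Ent-Pro array.

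Carriers of sugars, vitamins, organic ions, amino acids and peptides were often higher. Of 34 carriers of sugars, vitamins and organic ions 17 were higher in Ent-Pro (50.0%) and 3 lower (8.82%), with a median of 1.01; without ISC replicate 2 there were 11. With dim genes left out, 1 was lower. Against Sec-Pro 2 of the 34 were higher and 6 lower, with a median of −0.23. The citrate carrier Slc13a2 read 6.85 and 6.63 in ISC and 9.41 and 9.54 in Ent-Pro (2.74 ± 0.40, adjusted p = 0.0017). The ascorbate carrier Slc23a1 read 5.27 and 5.59 against 8.15 and 8.14 (2.72 ± 0.46, adjusted p = 0.0033). Neither was higher in ENT than in Ent-Pro (−0.13 and −1.09, adjusted p = 0.85 and 0.098), whereas 25 members of the list were. The organic cation carrier Slc22a21 was lower in Ent-Pro, at 8.04 and 7.95 in ISC against 6.19 and 6.47 (−1.66 ± 0.20, adjusted p = 0.00079). Of 22 amino acid and peptide carriers 10 were higher (45.5%) and 3 lower (13.6%), and 0 to 1 were lower without any 1 of the 4 arrays. Slc3a1 and Slc7a9, the 2 chains of the apical carrier of cystine and basic amino acids, were higher by 2.21 ± 0.38 and 2.56 ± 0.30 (adjusted p = 0.0034 and 0.00065). Against Sec-Pro 4 of the 22 amino acid and peptide carriers were higher and 1 lower. Of 32 ion pumps, channels and carbonic anhydrases, by contrast, 4 were higher (12.5%) and 1 lower (3.12%), against 12.1% and 13.5% of all genes.

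The same promoter search was made for CAAAGTCCA, a core of sites bound by HNF4, a nuclear receptor of enterocytes, on both strands. It was found in 0.476% of all 9882 promoters, in 0.898% of the 1225 promoters of higher genes, in 7 of the 452 of genes higher by at least 2-fold (1.55%) and in 0 of the 1386 of lower genes. These counts are small, and the motif is 1 of several searched. Hnf4a itself read 12.98 and 12.79 in ISC and 12.99 and 13.15 in Ent-Pro (0.18 ± 0.12, adjusted p = 0.34), with 4 probe sets between −0.49 and 0.94. The promoters of 3 of the 7 genes are shown 5′ to 3′ on the plus strand (RefSeq, GRCm38.p6), with the match or its reverse complement in capitals: Treh, the brush border trehalase (difference 2.61 ± 0.23, chr9:44672983-44673232), Slc3a1 (chr17:85028097-85028346) and Cyp2c65, a cytochrome P450 (2.15 ± 0.30, chr19:39060756-39061005).
Treh: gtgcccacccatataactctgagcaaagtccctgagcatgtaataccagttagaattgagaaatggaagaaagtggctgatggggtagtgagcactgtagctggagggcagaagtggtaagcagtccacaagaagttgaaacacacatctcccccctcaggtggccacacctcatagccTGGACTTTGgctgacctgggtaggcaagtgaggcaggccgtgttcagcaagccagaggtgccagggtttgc
Slc3a1: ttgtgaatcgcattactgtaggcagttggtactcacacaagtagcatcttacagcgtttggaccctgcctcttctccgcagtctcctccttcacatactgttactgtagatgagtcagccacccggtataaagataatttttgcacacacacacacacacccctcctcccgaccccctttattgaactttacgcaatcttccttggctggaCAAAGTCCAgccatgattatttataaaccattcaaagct
Cyp2c65: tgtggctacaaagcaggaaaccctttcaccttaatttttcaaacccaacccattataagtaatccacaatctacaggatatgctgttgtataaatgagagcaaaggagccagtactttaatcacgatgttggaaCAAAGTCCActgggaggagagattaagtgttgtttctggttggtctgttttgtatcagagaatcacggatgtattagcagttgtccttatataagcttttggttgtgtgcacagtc

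Many membrane and vesicle genes were higher as well. Of 28 keratins and epithelial membrane proteins 15 were higher (53.6%) and 3 lower (10.7%). Lgals3, a galactose-binding lectin, read 9.0 and 9.21 in ISC and 12.47 and 12.53 in Ent-Pro (3.40 ± 0.19, adjusted p = 3.1e-05). Krt18, a keratin of simple epithelia, went the other way, at 13.32 and 13.43 in ISC and 12.02 and 12.01 in Ent-Pro (−1.36 ± 0.15, adjusted p = 0.00045), and was lower than in Sec-Pro too (−1.29, adjusted p = 0.00027). So did Krt23 (−1.59 ± 0.26, adjusted p = 0.0025). Of 18 microvillus genes 9 were higher (50.0%) and 1 lower (5.56%), and 5 were higher without ISC replicate 2. Pls1, an actin bundler of the microvillus, read 9.46 and 9.55 against 12.10 and 11.91 (2.50 ± 0.23, adjusted p = 0.00026). Of 34 genes for endocytosis and apical recycling 15 were higher (44.1%) and none lower, with 8 without ISC replicate 2 and 9 without Ent-Pro replicate 1. Pdzk1, a scaffold that holds carriers at the apical membrane, was higher by 2.40 ± 0.38 and Anxa13, an annexin of enterocytes, by 1.56 ± 0.25. Against Sec-Pro 3 of the 28 keratins and epithelial membrane proteins were higher and 7 lower. None of the 18 microvillus genes was higher than in Sec-Pro and 4 were lower, and of the 34 endocytosis genes 1 was higher and 3 lower.

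In the endoplasmic reticulum list, higher genes outnumbered lower ones against ISC, and lower genes outnumbered higher ones against Sec-Pro. Of 35 genes for folding and translocation in the endoplasmic reticulum 17 were higher than in ISC (48.6%) and 4 lower (11.4%), with 11 higher without Ent-Pro replicate 2. Against Sec-Pro 24 were lower and none was higher, and 13 of the 35 were both above ISC and below Sec-Pro. P4hb, protein disulfide isomerase, read 11.99 and 11.95 in ISC, 13.36 and 13.28 in Ent-Pro and 13.64 to 13.76 in Sec-Pro (1.35 ± 0.12 against ISC, adjusted p = 0.00019). Ern2, a stress sensor of goblet cells, read 9.25 and 9.81 in ISC and 6.32 and 6.94 in Ent-Pro (−2.90 ± 0.26, adjusted p = 0.00025), alongside the secretory genes. Ddit3, a factor of the stress response, was lower by 1.73 on the log2 scale (SE 0.27, adjusted p = 0.0023). Of 41 glycosyltransferases and sulfotransferases 13 were higher (31.7%) and 1 lower (2.44%), and 8 were higher with the dimmest probe sets. St3gal4, which caps sugar chains with sialic acid, read 7.22 and 6.97 in ISC and 11.85 and 11.67 in Ent-Pro (4.67 ± 0.27, adjusted p = 3.4e-05). Gcnt3, which branches mucin-type chains, was higher by 2.27 ± 0.43 (adjusted p = 0.0052) but lower than in Sec-Pro by 1.44 on the log2 scale. Of the 41 glycosyltransferases and sulfotransferases 13 were lower than in Sec-Pro and none was higher.

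Beyond the secretory genes, the list with the highest share of lower genes was that of immediate-early genes, which are transcribed within minutes of a growth factor or stress signal and need no new protein. Of 30 measured genes 22 were lower in Ent-Pro (73.3%) and 1, Dusp6, was higher, with a median of −1.54. Without 1 of the 4 arrays 17 to 20 were lower, and 14 were when dim genes were left out. Egr1, a zinc finger factor, read 13.35 and 13.73 in ISC and 7.83 and 8.21 in Ent-Pro (−5.52 ± 0.29, adjusted p = 2.7e-05). Fosb, an AP-1 subunit, read 9.28 and 8.93 in ISC and 4.43 and 4.57 in Ent-Pro, at least 19.7-fold lower (−4.61 ± 0.16, adjusted p = 2.3e-06). In the 8 arrays outside ISC Fosb lay between 4.11 and 4.89. Jun, the AP-1 partner, chosen after its values were seen, read 12.91 and 12.83 in ISC and 9.09 and 8.77 in Ent-Pro (−3.94 ± 0.30, adjusted p = 0.00011).

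The feedback and stress members followed. Dusp1, a phosphatase that shuts off MAP kinases, read 11.10 and 11.20 in ISC and 5.85 and 6.31 in Ent-Pro (−5.07 ± 0.30, adjusted p = 3.6e-05). Atf3, a stress factor, read 10.92 and 11.35 against 6.40 and 7.12 (−4.38 ± 0.46, adjusted p = 0.00041). Fos and Junb were lower by less (−2.23 ± 0.33 and −2.28 ± 0.29, adjusted p = 0.0017 and 0.00091). Fos was not low outside the sorted cells as Fosb was: it read 12.65 and 12.42 in ENT, 1.85 above Ent-Pro (adjusted p = 0.002). Of the 30 immediate-early genes 14 were higher in ENT than in Ent-Pro and 2 lower, against 18.5% and 20.2% of all genes. Dusp6, the ERK phosphatase, read 6.91 and 7.44 in ISC and 8.85 and 9.36 in Ent-Pro (1.93 ± 0.56, adjusted p = 0.033), and it lost its call without any 1 of the 4 arrays compared or of the 2 DBZ arrays (largest adjusted p = 0.17). A pair of secreted ligands was lower as well: the endothelin gene Edn1 read 10.14 and 10.44 against 5.86 and 6.04 (−4.34 ± 0.26, adjusted p = 3.4e-05), and the EGF-family ligand Hbegf was lower by 2.68 on the log2 scale (SE 0.42, adjusted p = 0.0023). Hbegf was 1 of only 2 lower genes among 21 of the EGF family and ERK feedback, 5 of which were higher. The ISC arrays are the only sorted ones, and they also had the larger 3′ to 5′ difference; the part of the sort in this list was not tested.

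**Figure D4:**
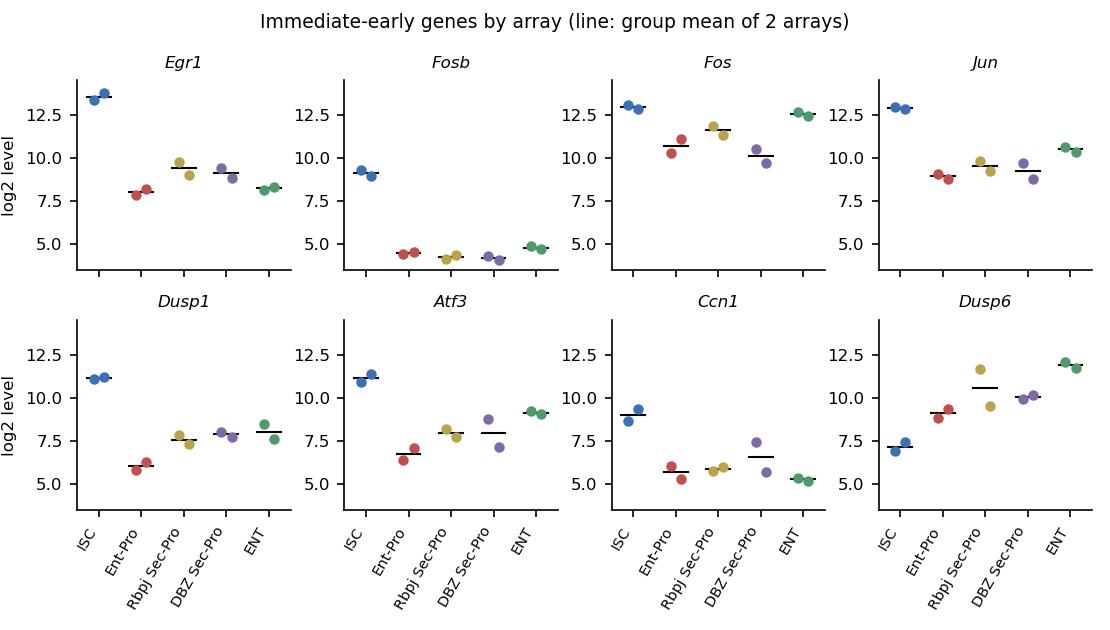
Log2 level (y axis) of 8 immediate-early genes in the 10 arrays, grouped on the x axis; points are arrays and lines are means of 2 arrays. Egr1, Fosb, Jun, Dusp1, Atf3 and Ccn1 are highest in both ISC arrays, Fos is nearly as high in ENT, and Dusp6 is lowest in ISC.

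The promoter of Dusp1 holds the full cAMP response element TGACGTCA, which occurs in 2 of 23 immediate-early promoters (8.70%) and in 2.32% of all 9882. Of the other motifs searched, the CArG box also occurred in 2 of the 23 (8.70%, against 1.38% of all). The E-box CACGTG occurred in 4 (17.4%, against 7.74%) and the AP-1 site TGAGTCA in 0 (against 3.91%). The 250 bases before the start of Dusp1 are shown 5′ to 3′ on the strand of the gene (chr17:26508473-26508722, minus strand, RefSeq GRCm38.p6). The cAMP response element is in capitals, at position −143 from the start.
Dusp1: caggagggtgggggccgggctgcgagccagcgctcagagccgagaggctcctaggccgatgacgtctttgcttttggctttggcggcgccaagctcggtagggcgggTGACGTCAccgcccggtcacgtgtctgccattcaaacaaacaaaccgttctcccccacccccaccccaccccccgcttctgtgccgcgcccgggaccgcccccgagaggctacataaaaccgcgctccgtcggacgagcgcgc

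Insulin and Wnt pathway genes were more often lower than higher, whereas EGF family genes were not. Of 30 genes for insulin, PI3K and mTOR signalling 11 were lower (36.7%) and 4 higher (13.3%), with a median of −0.41. The lower count was 4 without ISC replicate 1, 6 without ISC replicate 2, 2 and 4 without the first and the second Ent-Pro array, where 3 and 4 were higher, and 7 with centred arrays or the dimmest probe sets. Pdpk1, the kinase that activates Akt, was among the higher genes (1.26 ± 0.14, adjusted p = 0.00059). Of 21 genes of the EGF family and ERK feedback 5 were higher (23.8%) and 2 lower (9.52%); the higher count was 3 with the dimmest probe sets or when ISC replicate 1 or Ent-Pro replicate 1 was left out, 2 without the second ISC array and 1 without the second Ent-Pro array. Of 39 Wnt pathway genes 10 were lower (25.6%) and 3 higher (7.69%); without ISC replicate 1 or Ent-Pro replicate 1, with centred arrays or with dim genes left out, 6 were lower, and 1 was higher without ISC replicate 2 or Ent-Pro replicate 1. Rnf43, which removes Wnt receptors from the membrane and is itself a Wnt target, read 9.98 and 9.89 in ISC and 8.22 and 8.20 in Ent-Pro (−1.73 ± 0.18, adjusted p = 0.00041). In the other groups Rnf43 lay between 7.76 and 8.36, so its ISC arrays stood alone. Axin2 (−1.30 ± 0.23, adjusted p = 0.0037) and Sp5 (−1.90 ± 0.29, adjusted p = 0.0019), 2 further Wnt targets, were lower as well.

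Eph receptors and ephrins, which sort cells along the crypt, had 4 of 16 genes lower (25.0%) and 1 higher (6.25%). With the dimmest probe sets 2 were lower and none higher, and 2 were lower with dim genes left out. Ephb3, an Eph receptor of the crypt base, read 11.03 and 10.77 in ISC and 8.51 and 8.39 in Ent-Pro (−2.44 ± 0.20, adjusted p = 0.00014), and the ephrin ligand gene Efnb2 read 7.88 and 7.87 against 9.56 and 9.76 (1.79 ± 0.26, adjusted p = 0.0017). This receptor and this ligand thus moved in opposite directions. Of 19 genes of the Hippo pathway and Yap targets 4 were lower (21.1%) and 1 higher (5.26%); 2 were lower without ISC replicate 2 or either Ent-Pro array, and 2 higher with the dimmest probe sets. Wwtr1, the Taz coactivator of the Hippo pathway, read 7.86 and 7.48 in ISC and 5.46 and 6.12 in Ent-Pro (−1.88 ± 0.28, adjusted p = 0.0019), and it was lower there than in each other group.

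Chromatin, repair and autophagy lists held moderate decreases. Of 38 chromatin regulators 8 were lower (21.1%) and 2 higher (5.26%); none was higher without any 1 of the 4 arrays, 1 was without either DBZ array, and 13 were lower when only the 4 arrays were fitted. The bromodomain gene Brd2 read 11.82 and 12.26 in ISC and 10.38 and 10.46 in Ent-Pro (−1.62 ± 0.21, adjusted p = 0.001). The de novo DNA methyltransferase Dnmt3a was lower by 1.61 on the log2 scale (SE 0.24) and the histone methyltransferase Ehmt2 by 1.29 (SE 0.16). Of 36 DNA repair genes 9 were lower than in ISC (25.0%) and none higher, with 5 lower without ISC replicate 2 or Ent-Pro replicate 1, 3 without the second Ent-Pro array, and 1 higher without any 1 of the Rbpj or DBZ arrays. Against Sec-Pro 23 of the 36 were higher. Ddb2, a damage sensor, read 9.72 and 9.63 in ISC, 8.43 and 8.57 in Ent-Pro and 7.02 to 7.57 in Sec-Pro, a stepwise order without overlap (−1.17 ± 0.16 against ISC, adjusted p = 0.0013). Of 24 autophagy genes 8 were lower (33.3%) and 3 higher (12.5%), among them Wipi1, which binds early autophagosome membrane (−1.42 ± 0.15, adjusted p = 0.00041), and on the higher side the mitophagy receptor Bnip3 (2.27 ± 0.26, adjusted p = 0.00065).

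Several of the largest decreases were of transcription factors already named (Egr1, Fosb, Atf3, Neurog3). The list of intestinal transcription factors held more lower than higher genes. Of 32 intestinal transcription factors 8 were lower (25.0%) and 2 higher (6.25%), and without 1 of the 4 arrays 4 to 5 were lower. Creb3l3, a membrane-bound factor of lipid metabolism, read 7.83 and 8.44 in ISC and 10.41 and 10.25 in Ent-Pro (2.20 ± 0.28, adjusted p = 0.00094). The lipid receptor Ppara was higher than in ISC (0.97 ± 0.14, adjusted p = 0.0016) and than in Sec-Pro (1.71, adjusted p = 4.5e-05), at 9.40 and 9.47 in Ent-Pro. Of 18 circadian clock genes 3 were higher (16.7%) and 2 lower (11.1%), near the shares over all genes; 1 was higher without either ISC array or with the mean or the dimmest probe set, and 5 with centred arrays. The clock genes Cry1, a repressor, and Nr1d1, which the clock activates, moved apart: Cry1 read 5.64 and 5.72 in ISC against 7.91 and 7.77 (2.16 ± 0.21, adjusted p = 0.00027), and Nr1d1 7.82 and 7.93 against 6.20 and 6.21 (−1.67 ± 0.13, adjusted p = 0.00012). The labels name no hour of collection, so the part of time of day was not tested. The CDK inhibitor Cdkn2b read 6.73 and 6.60 in ISC and 9.09 and 8.77 in Ent-Pro (2.26 ± 0.24, adjusted p = 0.00046).

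The DNA replication and mitosis lists, by contrast, differed little between Ent-Pro and ISC. Of 36 DNA replication genes 5 were higher (13.9%) and 4 lower (11.1%), close to the 12.1% and 13.5% of all genes. The median of −0.03 turned to 0.09 with centred arrays and to 0.01 with cyclic loess or without Ent-Pro replicate 2, so it has no settled sign. Of 42 mitosis genes 6 were higher (14.3%) and 3 lower (7.14%), with a median of 0.12, which was −0.07 without Ent-Pro replicate 1. Without 1 of the 4 arrays in turn, 1 to 2 replication genes were higher and 2 to 3 lower, and 0 to 3 mitosis genes were higher and 1 to 3 lower. When only the 4 arrays were fitted, 7 genes of each list were lower, and without either Rbpj array 5 mitosis genes were. Against the other groups the 2 lists differed widely: 34 replication and 35 mitosis genes were higher than in Sec-Pro, and all 36 and 41 of 42 were lower in ENT than in Ent-Pro. Mki67, a protein of dividing nuclei, read 12.47 and 12.54 in ISC, a mean of 11.91 in Ent-Pro and 8.71 and 9.30 in ENT; its difference from ISC was −0.59 ± 0.32 (adjusted p = 0.23).

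A few members were called nonetheless. The helicase subunit Mcm4 read 10.38 and 10.55 in ISC and 11.51 and 11.49 in Ent-Pro (1.04 ± 0.16, adjusted p = 0.0019), and the polymerase subunit Pold1 11.13 and 11.19 against 9.93 and 9.74 (−1.33 ± 0.24, adjusted p = 0.0041). Both lay on the same side without any 1 of the 10 arrays. Myc, which drives ribosome production, read 10.51 in both ISC arrays and 10.50 and 10.65 in Ent-Pro (0.06 ± 0.15, adjusted p = 0.84), and 8.86 to 9.16 in Sec-Pro and 8.75 and 8.41 in ENT. It was chosen after its values were seen. The Ent-Pro and ISC arrays of Myc overlapped, and all 4 lay above the other 6.

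The machinery of protein and RNA production differed from list to list. Of 42 ribosome biogenesis genes 3 were higher than in ISC (7.14%) and 8 lower (19.0%), with a median of −0.15; 3 to 4 were lower without 1 of the 4 arrays, and 6 higher and 4 lower with centred arrays. Against Sec-Pro 33 were higher, and all 42 were lower in ENT than in Ent-Pro. Of 47 splicing genes 3 were higher (6.38%) and 5 lower (10.6%), and 43 were lower in ENT than in Ent-Pro. The lower count against ISC was 0 without ISC replicate 2 or Ent-Pro replicate 2, 1 without ISC replicate 1 or Ent-Pro replicate 1, 3 without either DBZ array and 8 after cyclic loess, and the higher count 5 to 7 with centred arrays or other probe set rules. Of 41 cytoplasmic ribosomal protein genes none was higher and 3 were lower (7.32%), but the lower count was 1 without ISC replicate 1 or Ent-Pro replicate 2, 5 without either Rbpj array, 7 after quantile normalization and 16 after cyclic loess, with medians of −0.10 and −0.30 in place of −0.03, and 0.09 with centred arrays. No direction is given for that list. Of 19 genes for RNA polymerases I and III and Myc 7 were lower (36.8%) and 1 higher (5.26%), but 4 were lower without either ISC array, and 3 without either Ent-Pro array or with the dimmest probe sets. The higher count of that list was 0 without ISC replicate 2, 2 after cyclic loess, and 4 without either Rbpj array or when only the 4 arrays were fitted. Of 20 aminoacyl-tRNA synthetases 4 were lower and 2 higher; 2 were lower without the second Ent-Pro array or with the dimmest probe sets, and 1 was higher without any 1 of the 4 arrays or after cyclic loess or quantile normalization, against 4 with centred arrays. Of 32 genes of the nuclear pore and nuclear transport 12 were higher (37.5%) and 2 lower (6.25%), which was above the background share; 6 were without ISC replicate 2 or Ent-Pro replicate 1, and 7 with the second Ent-Pro array left out or with the dimmest probe sets. The import receptor Kpna2 read 10.78 and 10.19 in ISC and 12.50 and 12.55 in Ent-Pro (2.04 ± 0.19, adjusted p = 0.00027).

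**Figure D5:**
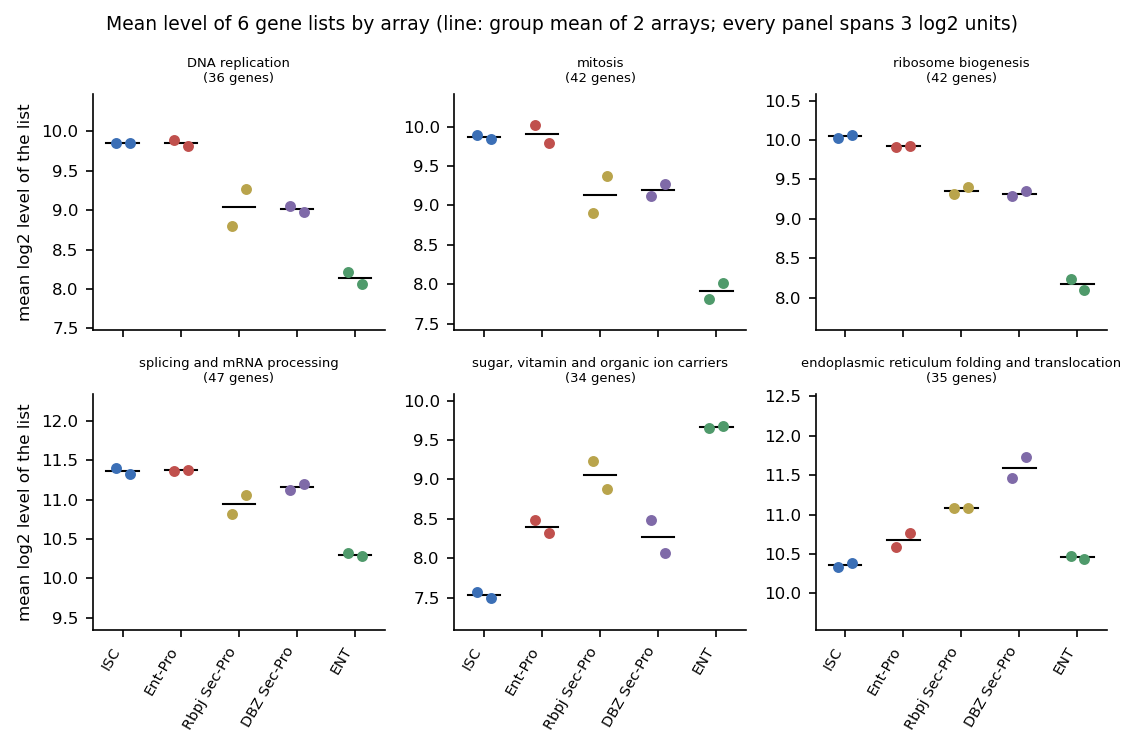
Mean log2 level (y axis, each panel spanning 3 units) of 6 gene lists in the 10 arrays, grouped on the x axis; points are arrays and lines are means of 2 arrays. Replication, mitosis, ribosome biogenesis and splicing lists are at similar levels in ISC and Ent-Pro and lowest in ENT, while the carrier list rises from ISC to Ent-Pro to ENT and the endoplasmic reticulum list is highest in Sec-Pro.

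Transcripts of other cells differed in a few genes. The immunoglobulin genes Igha and Jchain of plasma cells were higher in Ent-Pro: Igha read 6.61 and 6.33 in ISC and 10.84 and 9.69 in Ent-Pro (3.79 ± 0.46, adjusted p = 0.00079), and Jchain 4.20 and 4.27 against 8.09 and 7.60, at least 7.21-fold higher (adjusted p = 0.00047). They were 2 of the 11 plasma and B cell genes, whose mean level was 5.77 and 5.87 in ISC and 6.71 and 6.43 in Ent-Pro. Of 27 T cell genes 1, Gzma, was higher (2.67 ± 0.65, adjusted p = 0.017), a call lost without ISC replicate 1 or either Ent-Pro array, with 3 higher without either Rbpj array and 7 when only the 4 arrays were fitted, and the leukocyte gene Ptprc read 4.40 and 4.56 against 6.18 and 6.06 (1.64 ± 0.57, adjusted p = 0.067). The T cell list had a mean level of 5.52 and 5.64 in ISC and 6.03 and 5.93 in Ent-Pro. Igha and Jchain were thus higher in unsorted crypts than in sorted cells, and the part of other cells in the other differences was not tested. Lyz2, a lysozyme gene on the myeloid list, was lower in Ent-Pro, at 10.77 and 11.51 against 7.22 and 7.80 (−3.63 ± 0.51, adjusted p = 0.0014). The ISC arrays also held secretory transcripts, and the cell type behind the Lyz2 signal was not tested. Lyz2 was 1 of 2 lower genes (8.70%) among 23 myeloid and mast cell genes, of which the other 21 were not called. Their mean level was 5.52 and 5.65 in ISC and 5.52 and 5.48 in Ent-Pro, and their median difference was 0.07. Without either Rbpj array 2 of them were higher, and 3 when only the 4 arrays were fitted.

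One locus followed no cell type. Gt(ROSA)26Sor, the noncoding gene at the locus into which reporter and other transgenes are often placed, read 8.89 and 8.47 in ISC and 4.00 and 3.81 in Ent-Pro, near background, at least 14.6-fold lower (−4.78 ± 0.15, adjusted p = 1.9e-06). It read 8.17 and 8.28 in ENT, which the labels give as the same genotype as Ent-Pro. The Rbpj arrays, at 3.67 and 3.71, were low as the Ent-Pro arrays were, and the DBZ arrays, at 9.19 and 9.27, high. The labels mention no allele at this locus.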

How the data were processed

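The authors deposited log2 expression values per probe set for 10 arrays; the submitters' processing notes name RMA and MAS5 without saying which step each served, and the summarisation settings are not given in the sources used here. Of 22690 probe sets, 20393 carried a single gene symbol in the platform annotation, 691 several and 1606 none here, and 64 control probe sets were left out. Each of 12393 genes was represented by its brightest probe set, by the mean of all 10 arrays. Group means were fitted to all 10 arrays with limma 3.58.1 (lmFit, eBayes) in R 4.3.3, and p-values were adjusted over all genes (Benjamini-Hochberg, threshold 0.05). On simulated data with 200 changed genes, 71% of log2 changes of 1 and 93% of log2 changes of 2 were recovered, and 9 unchanged genes were called. In the data 3165 of 12393 genes were called, and the adjustment depends on that share, so the simulated rates do not give the recovery here. With 2 arrays a group, the number of arrays limits the precision. Leaving out 1 of the 4 Ent-Pro and ISC arrays leaves its group with 1, and calls then fell over all genes. A smaller list count in that case therefore need not mark a particular array. Gene lists and the comparison were chosen with earlier results of these data known. Genes named are the 15 largest calls in each direction without overlap of the arrays, up to 4 called members per list and direction (or, with under 2 called, the 2 members of lowest p), and Atoh1, Lgr5 and Mki67. Ascl2, Axin2, Cyp2c65, Cyp3a11, Eif2s3y, Fos, Hmgcs1, Hnf4a, Jun, Junb, Myc, Ppara, Ptprc, Smoc2, Srebf2 and Treh were chosen after their values were seen. Promoters are RefSeq's, found for 9882 genes. Alternatives were other normalizations, probe set rules, filters, variance priors, a minimum change and leaving out arrays.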

Additional observations from a re-analysis of the deposited data

How the results depend on the processing

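Tested against a minimum change of 2-fold (limma's treat), 164 genes were called, 92 higher and 72 lower in Ent-Pro, against 3165, 1498 and 1667 without a minimum. Leaving out each of the 10 arrays in turn gave 1704 to 3656 genes called, 800 to 1690 higher and 861 to 1966 lower. The replicate numbers of the labels did not pair the arrays (correlation of the replicate differences of ISC and Ent-Pro 0.0043); with the replicate block 1413 genes were higher and 1568 lower. Higher genes made up 59.9% of the calls with centred arrays, 50.8% with cyclic loess and 47.9% with quantile normalization. Among the genes named, 5 changed sign, 4 of them not called: Ascl2 to 0.51 with the dimmest probe set, Hmgcs1 to 0.05 with centred arrays, 0.98 with the mean of the probe sets and 1.82 with the dimmest one (−0.14 to 0.01 when single arrays were left out), Hnf4a to −0.04 with cyclic loess and −0.49 with the dimmest probe set, and Myc to −0.06 with quantile normalization (−0.02 to 0.14 when single arrays were left out). The call of Pck1 turned to −0.02 with the dimmest probe set. The cause was not tested. Of 110 named genes called, 18 lost the call with the dimmest probe set and 53 against a 2-fold minimum. Of the 1500 called genes with more than 1 probe set, 979 (65.3%) had every probe set in the direction of the call. In ISC 2362 genes and in Ent-Pro 2034 were near background, where the arrays give only a bound.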

Other observations

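Several peroxisome genes and a few oxygen-response genes also differed. Of 21 peroxisome genes 8 were higher in Ent-Pro than in ISC (38.1%) and 1 lower (4.76%), against 12.1% and 13.5% of all genes, and 3 were higher without ISC replicate 2 or without Ent-Pro replicate 1. Ehhadh, an enzyme of peroxisomal fatty acid oxidation, read 8.58 and 8.19 in ISC and 9.51 and 9.34 in Ent-Pro (1.04 ± 0.17, adjusted p = 0.0028), and it was higher again in ENT by 2.37. Egln3, a prolyl hydroxylase that marks hypoxia-inducible factors for decay, read 4.83 and 4.59 in ISC, near background, and 7.88 and 8.08 in Ent-Pro, at least 7.91-fold higher (3.27 ± 0.16, adjusted p = 1.6e-05), with its lowest probe set at 0.26. ENT was higher again by 4.14, and Ent-Pro was lower than Sec-Pro by a log2 difference of −1.55. Vldlr, a lipoprotein receptor, ran the other way, at 6.83 and 6.85 in ISC and 4.86 and 5.06 in Ent-Pro (−1.88 ± 0.25, adjusted p = 0.0011). The hypoxia list as a whole was near the background share, with 4 of 22 genes higher (18.2%) and 3 lower (13.6%).

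Mxd4, a repressor that competes with Myc for its partner Max, read 8.79 and 8.72 in ISC and 7.28 and 7.36 in Ent-Pro (−1.43 ± 0.13, adjusted p = 0.00025), while Myc differed by 0.06 (adjusted p = 0.84). The class I histocompatibility gene H2-Q2 read 9.77 and 9.52 in ISC and 11.22 and 11.29 in Ent-Pro (1.61 ± 0.18, adjusted p = 0.00056), though probe sets of this family can share targets.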
